A study of Saccharomyces cerevisiae and Saccharomyces paradoxus with 16 samples.

Results

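Cryptic unstable transcripts (CUTs) are noncoding RNAs that RNA polymerase II makes and the nuclear exosome degrades soon afterwards. Most CUTs are hardly seen in cells that have Rrp6p, a catalytic exosome subunit, and a smaller group is visible in WT and rises further without Rrp6p. The CUTs described here are the more strongly raised part of that group. They were selected on the authors' mean coverage in the deposited annotations, by a WT coverage of 5 or more and a ratio of *rrp6*Δ over WT coverage of 3 or more, with 1 added to both. In all, 386 of 9377 annotated CUTs met both limits, made up of 48 of the 2055 CUTs annotated for S288c, 78 of 2393 for Σ1278b, 118 of 2268 for JAY291 and 142 of 2661 for N17. Both coverages and their ratio therefore chose the CUTs and are given as description, without a test.

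The study sequenced strand-specific poly(A) RNA from 16 libraries, with 2 of *rrp6*Δ and 2 of WT cells for each of 4 strains, grown in YPD at 30 °C to mid-log phase. S288c, Σ1278b and JAY291 are *S.cerevisiae* strains, and N17 is a strain of *S.paradoxus*. In S288c, *rrp6*Δ cells carried rrp6::KanMX with his3delta1, leu2delta0, ura3delta0 and met15delta0, against his3delta1, lys2delta0, leu2delta0 and ura3delta0 in WT cells. In Σ1278b, *rrp6*Δ cells carried rrp6::KanMX with his3delta1, leu2delta0 and ura3delta0, against ura3-52, leu2::hisG and his3::hisG in WT cells. JAY291 *rrp6*Δ cells carried rrp6::KanMX alone, against an unmodified WT. N17 cells carried HO::lox-Kan-lox in both genotypes, and *rrp6*Δ cells had rrp6::NatMX as well. Replicate 1 of each *S.cerevisiae* genotype had 1 round of poly(A) selection and all other libraries had 2 rounds. The annotations hold 1 mean per CUT and genotype, over both replicates, so no value below has an SD or a replicate count, and depth and the deleted gene were not examined per library. Coverage is the mean number of reads over a nucleotide of the CUT per 10000000 mapped reads. More RNA in each cell and more cells that carry the transcript cannot be told apart in such RNA.

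Early termination of CUTs in *S.cerevisiae* depends on the Nrd1-Nab3-Sen1 complex, which binds short motifs in the nascent RNA (GUAA or GUAG for Nrd1p, UCUU for Nab3p) and hands the transcript to the TRAMP complex and the exosome. At several genes of nucleotide synthesis, URA2 and IMD2 among them, short transcripts that start upstream of the mRNA and end this way are long known. In S288c, the selected CUTs lay upstream of URA2, IMD3, IMD2 and ADE12 on the strand of the gene. The starts of these 4 CUTs are printed because the results return to them. Each is read 5′ to 3′ from the first base of the CUT on its transcribed strand in assembly R64, with GTAA, GTAG and TCTT in capitals and every other base in lower case, and each window ends before a start codon.
URA2 CUT2006 (chrX:172887-173086, minus strand): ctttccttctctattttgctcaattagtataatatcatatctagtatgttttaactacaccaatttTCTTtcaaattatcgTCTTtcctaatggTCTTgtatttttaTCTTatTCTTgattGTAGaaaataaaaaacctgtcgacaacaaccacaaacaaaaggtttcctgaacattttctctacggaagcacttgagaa
IMD3 CUT1998 (chrXII:1002287-1002436, plus strand): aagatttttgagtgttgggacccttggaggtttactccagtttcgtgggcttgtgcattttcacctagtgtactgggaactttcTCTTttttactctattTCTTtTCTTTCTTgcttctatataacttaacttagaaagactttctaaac
IMD2 CUT1979 (chrVIII:554138-554277, plus strand): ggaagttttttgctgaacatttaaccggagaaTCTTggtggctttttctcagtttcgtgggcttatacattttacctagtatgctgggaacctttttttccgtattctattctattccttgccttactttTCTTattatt
ADE12 CUT1974 (chrXIV:233961-234160, plus strand): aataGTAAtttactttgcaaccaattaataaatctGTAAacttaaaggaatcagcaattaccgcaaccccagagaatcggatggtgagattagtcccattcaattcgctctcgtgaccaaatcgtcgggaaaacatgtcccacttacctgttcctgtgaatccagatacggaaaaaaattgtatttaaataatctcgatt

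The first 200 bases of the URA2 CUT held 1 Nrd1 and 5 Nab3 motifs, and the first 150 bases of the IMD3 CUT held 4 Nab3 motifs and no Nrd1 motif. The ADE12 window of 200 bases held 2 Nrd1 motifs and no Nab3 motif, but the whole CUT of 380 nt held 6 Nrd1 and 6 Nab3 motifs. Over their whole lengths, the URA2 CUT held 1 Nrd1 and 6 Nab3 motifs and the IMD2 CUT 1 and 2. CUT1998 at IMD3 and CUT1979 at IMD2 shared an identical run of 15 bases, cagtttcgtgggctt, which began at base 38 of the IMD3 CUT and at base 50 of the IMD2 CUT. IMD2 and IMD3 are close paralogs, and the authors kept uniquely mapped reads. A motif match here is a description of the sequence and not a binding site.

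The CUTs of nucleotide synthesis genes were among the better covered of the 48 in S288c. CUT2006, upstream of URA2, which encodes the enzyme of the first steps of pyrimidine synthesis, had a coverage of 228 in *rrp6*Δ and 11.9 in WT, a ratio of 17.7. It spanned 387 nt at X:172700-173086 on the minus strand and ended 333 bp before the start codon. CUT1998 at XII:1002287-1002467, upstream of IMD3, had a coverage of 138 in *rrp6*Δ and 25.3 in WT, and ended 90 bp before the start codon. IMD3 encodes an IMP dehydrogenase, which serves GTP synthesis. CUT1979 at VIII:554138-554479 had 64.5 in *rrp6*Δ and 9.62 in WT, and ran past the start codon of IMD2, the gene of a second such enzyme. CUT1974 at XIV:233961-234340, upstream of ADE12, the adenylosuccinate synthase of AMP synthesis, had 54.4 in *rrp6*Δ and 15.8 in WT and ended 73 bp before the start codon. These 4 CUTs took ranks 6, 10, 20 and 23 of 48 by *rrp6*Δ coverage, and their ratios of 17.7, 5.27, 6.16 and 3.31 took ranks 3, 19, 12 and 36. By coverage, then, the URA2 CUT stood high on both scales, whereas the ADE12 CUT was near the ratio limit.

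Of 36 annotated genes on a list of nucleotide synthesis genes, 17 had any S288c CUT in 1 of the examined relations, or 47.2%, beside 37.5% of all protein-coding genes, and 4 had a selected one, or 11.1% of the list, beside 57 of 6002 protein-coding genes, or 0.9497%. The list was made with the URA2, IMD3 and ADE12 CUTs already known, so its share is a description only. Genes of chromosome XIII and most of those of chromosome XII could receive no CUT, because CUTs of both chromosomes share 1 label. They stay in these totals and in those of the other lists. The other upstream CUTs that could be placed at genes of this list fell short of the WT limit. CUT1821 at URA8, a CTP synthase gene, had 16.9 in *rrp6*Δ and 3.48 in WT, and CUT296 at URA6 had 2.88 in *rrp6*Δ and 0.617 in WT. IMD2 and IMD3 each had a divergent CUT too, with 2.48 in *rrp6*Δ and 0.0347 in WT for CUT163 at IMD2, and 22.3 in *rrp6*Δ and 3.99 in WT for CUT1888 at IMD3. Neither reached the WT limit.

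**Figure D1:**
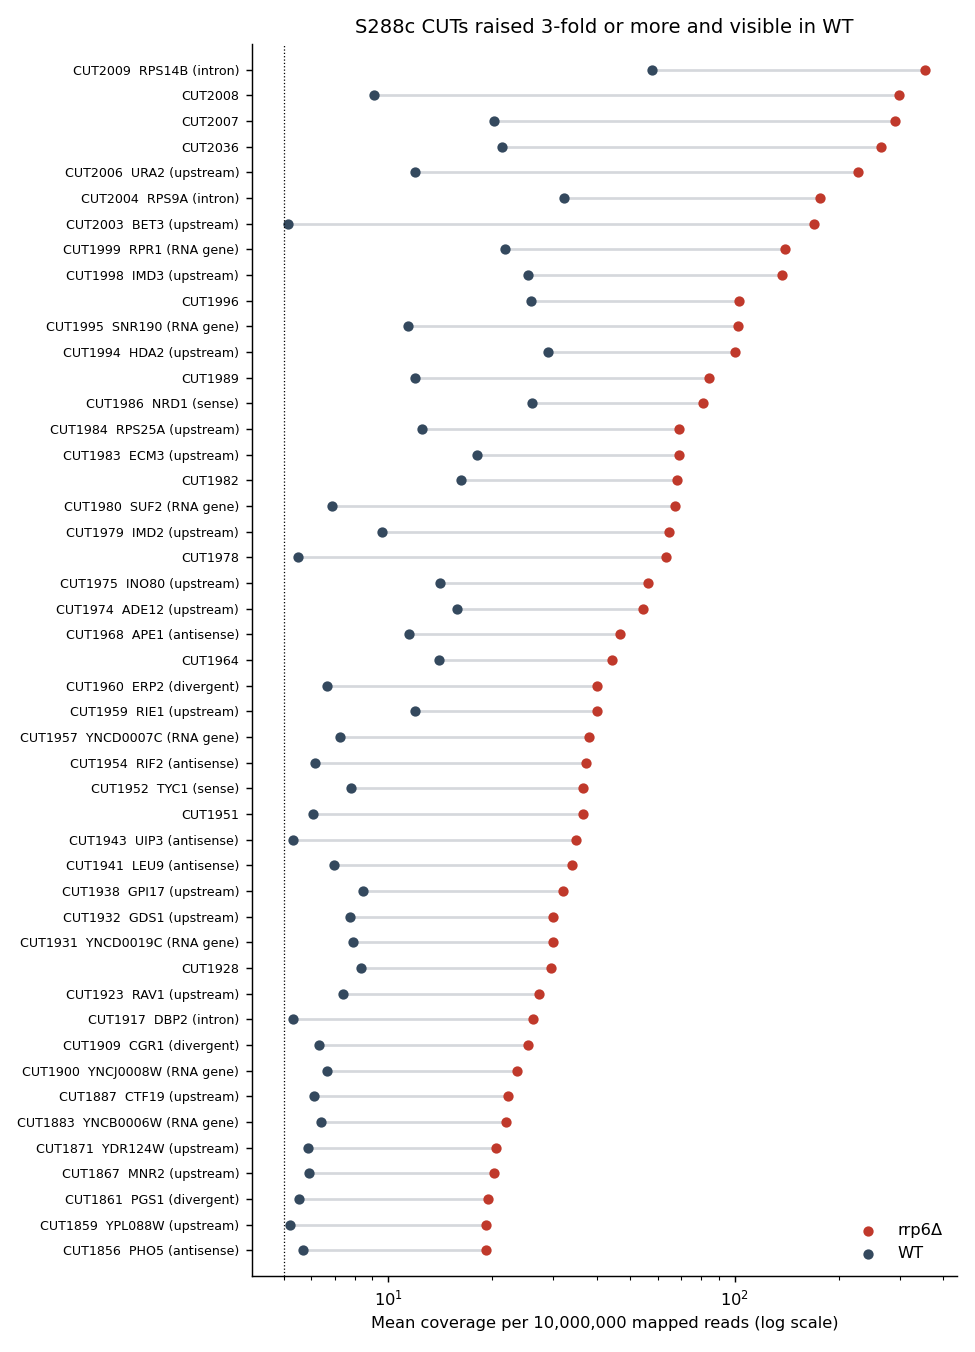
Mean coverage of 47 of the 48 selected S288c CUTs in *rrp6*Δ (red) and WT (dark blue), on a log axis of coverage per 10000000 mapped reads, ordered by *rrp6*Δ coverage. Each CUT with a certain chromosome and a relation to a gene carries 1 such gene, the dotted line is the WT limit of 5, and *rrp6*Δ values run from 19.1 to 356, with the RPS14B intron CUT highest.

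On the list of Nrd1-Nab3-Sen1, TRAMP and exosome genes, only NRD1 had a selected CUT among those with a certain chromosome. Of its 25 annotated genes, 10 had any CUT, or 40%, beside 37.5% of all protein-coding genes, and the 1 with a selected CUT made up 4%, beside 0.9497%. CUT1986 spanned 2191 nt at XIV:172474-174664 and covered all of the NRD1 coding sequence on its own strand, with a coverage of 81.1 in *rrp6*Δ and 26.05 in WT. Its ratio of 3.04 was just inside the limit, and it was the longest of the 48. As it covers the whole gene, the NRD1 mRNA and any shorter transcript cannot be told apart in this value. Its end also lay 188 bp before the start codon of MRPL17. CUT1808, divergent from NRD1, had 16.2 in *rrp6*Δ and 1.04 in WT and was below the WT limit.

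Some selected CUTs lay in introns, a relation that was added after the values were seen. CUT2009 had 356 in *rrp6*Δ and 57.6 in WT, with 76.3% of its length in the intron of RPS14B, and CUT2004 had 177 in *rrp6*Δ and 32.1 in WT, with 95.1% in the intron of RPS9A. These are genes of cytosolic ribosomal proteins. CUT1917 lay wholly inside the 1002 bp intron of DBP2, an RNA helicase gene, with 26.1 in *rrp6*Δ and 5.30 in WT. In all, 4 of the 40 selected CUTs with a certain chromosome had at least 25% of their length in an intron of their own strand, or 10% (95% Wilson interval 3.96 to 23.1%), against 4 of the 1705 other S288c CUTs, or 0.235% (0.0913 to 0.602%). Among those other 4 was CUT1997 at RPL31B, with 128 in *rrp6*Δ and 129 in WT. Among the 1705 were 77 CUTs with a WT coverage of 5 or more and a ratio under 3. Of these 77, 2 were such intron CUTs, or 2.60% (0.715 to 8.98%), an interval that overlapped that of the selected CUTs. Intron CUTs with strong coverage in WT thus lay on both sides of the ratio limit.

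Genes of small structured RNAs made up a further group. CUT1999 spanned 1110 nt at V:117046-118155 over RPR1, the RNA of RNase P, with 140 in *rrp6*Δ and 21.7 in WT. It ended 76 bp from URA3, which carries the ura3delta0 allele in both S288c genotypes. CUT1995 ended 10 bp before SNR190, a snoRNA gene, with 102 in *rrp6*Δ and 11.4 in WT. CUT1980 at III:123383-123656 covered the tRNA gene SUF2, with 67.3 in *rrp6*Δ and 6.90 in WT. A tRNA gene was overlapped on its own strand by 4 of the 40 CUTs, or 10% (3.96 to 23.1%), against 24 of 1705, or 1.41% (0.948 to 2.09%). CUT1957, CUT1900 and CUT1883 were the others, with 37.9, 23.6 and 21.8 in *rrp6*Δ against 7.26, 6.66 and 6.40 in WT. Of the 77 CUTs with a WT coverage of 5 or more and a ratio under 3, 1 overlapped a tRNA gene on its own strand. This was 1.30% (0.230 to 6.996%), an interval that overlapped that of the selected CUTs. CUT1931, 131 nt long, lay 28 bp from another tRNA gene, with 29.96 in *rrp6*Δ and 7.90 in WT. Regions at snRNA, snoRNA and rRNA genes were taken out by the authors, whose methods do not name tRNA genes or RPR1 among them.

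The position of the S288c CUTs relative to genes was not itself a limit, but it is not independent of the WT limit. Reads of a gene on the same strand also count toward the coverage of a CUT that overlaps it. The paper states that gene and CUT coverage cannot be separated there. Positions are therefore set beside those of the rest as a description only. Among the 40 with a certain chromosome, 22 lay upstream of a protein-coding gene on its own strand, with the end at most 600 bp before the start codon or inside the first 25% of the coding sequence. This was 55% (95% Wilson interval 39.8 to 69.3%), against 490 of 1705 other CUTs, or 28.7% (26.6 to 30.9%). Only 5 of 40 were antisense to a coding sequence over at least 25% of their length, or 12.5% (5.46 to 26.1%), against 984 of 1705, or 57.7% (55.4 to 60.04%). The intervals of the 2 sets did not overlap for either relation, and they cover counting error only. Divergent positions, within 600 bp of the start codon of a gene on the other strand, were held by 23 of 40, or 57.5% (42.2 to 71.5%), against 1008 of 1705, or 59.1% (56.8 to 61.4%), a difference within the interval.

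The CUTs that were as visible in WT but had smaller ratios were closer to the selected ones in position. Of 77 CUTs with a WT coverage of 5 or more and a ratio under 3, 12.99% were antisense (7.21 to 22.3%) and 44.2% lay upstream of a gene on its own strand (33.6 to 55.3%). Both intervals overlapped those of the selected CUTs, so the low antisense share was held by the CUTs visible in WT on either side of the ratio limit. Divergent positions were held by 57.5% of the 40 and 35.1% of the 77 (25.3 to 46.2%), with overlapping intervals.

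**Figure D2:**
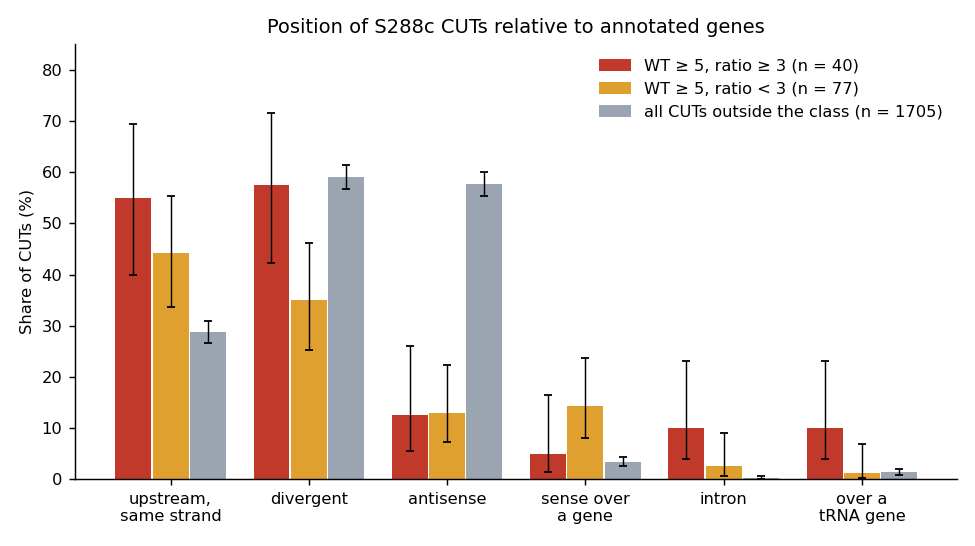
Share of S288c CUTs in each position relative to annotated genes, in percent, for the selected CUTs (red), those as visible in WT with a ratio under 3 (yellow) and all CUTs outside the class (grey), with 95% Wilson intervals. Antisense positions hold 12.5% of the selected CUTs and 57.7% of the others, and positions upstream on the same strand hold 55% and 28.7%.

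Of the 22 upstream CUTs, 15 ended before the start codon, at 2 to 584 bp with a median of 293 bp, and 7 ran into the coding sequence. A CUT could hold several relations. Of the 22, 13 were also divergent from a gene, and 8 had no other relation to a protein-coding gene. CUT1986 over NRD1 and CUT2009 in the RPS14B intron were among the 22. CUT2003, upstream of BET3, a gene of the TRAPP vesicle-tethering complex, had 169 in *rrp6*Δ and 5.14 in WT, a ratio of 27.8, and its 158 nt ended 175 bp before the start codon. It began 371 bp from the start codon of MET1 on the other strand. CUT1994 ran 11 bp beyond the first base of the start codon of HDA2, a histone deacetylase complex gene, with 100.3 in *rrp6*Δ and 29.0 in WT. CUT1983, ending 73 bp before ECM3, had 69.1 in *rrp6*Δ and 18.1 in WT. CUT1984, upstream of the ribosomal protein gene RPS25A and over a long terminal repeat, had 69.1 in *rrp6*Δ and 12.5 in WT over 867 nt. In this group only CUT2003 and CUT2006 had ratios above 10, and the group's median ratio was 3.50, close to the limit.

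The 5 antisense CUTs lay against APE1, RIF2, UIP3, LEU9 and PHO5, with *rrp6*Δ coverage between 19.1 and 46.7 and WT coverage between 5.30 and 11.4. CUT1856 lay wholly inside PHO5, the gene of the repressible acid phosphatase, and had 19.1 in *rrp6*Δ and 5.66 in WT, the lowest *rrp6*Δ coverage of the 48. CUT1941 was antisense to the leucine synthesis gene LEU9 over 61.6% of its length, with 33.9 in *rrp6*Δ and 6.97 in WT. Among selected CUTs with a certain chromosome, it was the sole one at 50 listed genes of amino acid synthesis. None of them lay at 21 glycolysis genes or at 17 annotated mating type and marker genes. These totals include genes of chromosomes XII and XIII that could receive no CUT. At a share of 0.9497% over all protein-coding genes, fewer than 1 such gene would be met in each of these lists, so these counts say nothing particular of them. CUT1861, 153 nt long and divergent from PGS1, had 19.4 in *rrp6*Δ and 5.54 in WT. CUT1978 and CUT1996 on chromosome III had no relation to a gene by these rules, with 63.6 and 102.9 in *rrp6*Δ against 5.50 and 25.8 in WT. CUT1978, with a ratio of 9.94, lay 771 bp from CUT1980 at SUF2, and these were the only 2 of 38 selected S288c CUTs outside the chrXII label with another within 2000 bp.

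Chromosome labels limited these assignments. No CUT of S288c, Σ1278b or N17 carried the label chrXIII, and the chrXII label held CUTs of both chromosomes. In S288c, 2 of 10 selected CUTs under this label, CUT1998 and CUT1954, lay past the end of chromosome XIII at 924431 and could be placed on chromosome XII. The other 8 were left without a gene. Among them were CUT2008 at 460281-460604 with 298 in *rrp6*Δ and 9.11 in WT, the largest ratio of the 48 at 29.5, and CUT2007 at 362870-362982, the shortest at 113 nt, with 291 in *rrp6*Δ and 20.2 in WT. CUT2036, 1001 nt long with 265 in *rrp6*Δ and 21.4 in WT, stood after the point where the annotation stops being ordered by *rrp6*Δ coverage, and CUT1989 had 84.3 in *rrp6*Δ and 11.95 in WT. The best covered unplaced CUTs thus matched the intron and URA2 CUTs in coverage.

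The 40 placed S288c CUTs held fewer termination motifs per 100 nt than the other CUTs, with a larger difference for Nab3 than for Nrd1 motifs. The other CUTs visible in WT were lower in Nab3 motifs but not in Nrd1 motifs. GTAA, GTAG and TCTT, counted on the transcribed strand, occurred 1.61 times per 100 nt in the selected CUTs and 2.01 times in the other 1705, among which the 77 CUTs visible in WT with a ratio under 3 had 1.73. Nab3 motifs alone occurred 0.767 times per 100 nt in the selected CUTs, 1.10 times in the others and 0.818 times in the 77. Nrd1 motifs occurred 0.840, 0.909 and 0.912 times in the same order. Per CUT, the middle 50% of the motif densities ran from 1.13 to 2.10 in the selected CUTs and from 1.55 to 2.46 in the others, so the ranges overlapped widely. Both kinds of motif were present in 32 of 40 CUTs, or 80%, against 89.1% of the others and 92.2% of the 77. Median GC content was 35.3% in the selected CUTs and 38.3% in the others, with 37.1% in the CUTs visible in WT with a ratio under 3. The letters TATAAA occurred on the CUT's strand in the 200 bp before the start of 12 of 40 selected CUTs, or 30%, against 19.4% of the other CUTs and 32.5% of the 77, a search added after the other values were seen.

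Across strains, the number of CUTs in the class was lowest in S288c and highest in N17. They made up 2.34% of the S288c CUTs (95% Wilson interval 1.77 to 3.08%), 3.26% of those of Σ1278b (2.62 to 4.05%), 5.20% of those of JAY291 (4.36 to 6.19%) and 5.34% of those of N17 (4.55 to 6.26%). With a ratio limit of 4 the numbers were 24 for S288c, 33 for Σ1278b, 66 for JAY291 and 106 for N17, so JAY291 and N17 were less alike there. At the limit used, JAY291 and N17 did not differ beyond these intervals, nor did S288c and Σ1278b. A ratio of 3 or more was common in every annotation, as CUTs were called on *rrp6*Δ over WT, being held by 63.9% of all S288c CUTs, 70.9% for Σ1278b, 86.2% for JAY291 and 62.2% for N17. Among CUTs with a WT coverage of 5 or more it was less common than among those below, at 35.04% against 66.0% for S288c, 39.2% against 73.8% for Σ1278b, 54.1% against 89.6% for JAY291 and 34.8% against 67.2% for N17. The WT limit passed 6.67% of the S288c CUTs, 8.32% for Σ1278b, 9.61% for JAY291 and 15.3% for N17. N17 thus had many visible CUTs of which a share like that of S288c reached the ratio limit, and JAY291 had fewer, of which a larger share did.

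**Figure D3:**
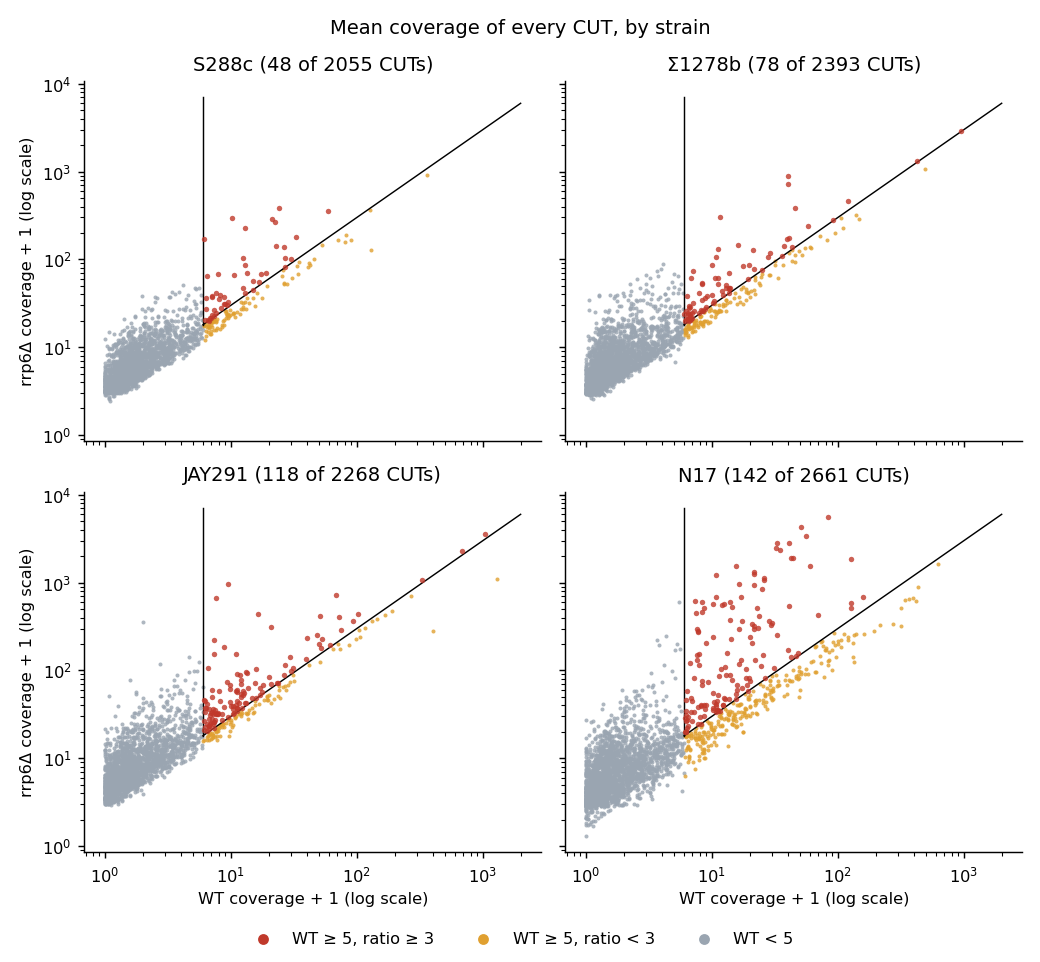
Mean *rrp6*Δ coverage against mean WT coverage of every CUT in the 4 strains, both plus 1 on log axes, with the selected CUTs in red, those with WT coverage of 5 or more and a ratio under 3 in yellow and the rest in grey. The black lines are the limits, and in N17 the selected CUTs reach far above the ratio line, with 59 of 142 at a ratio of 10 or more, against 6 of 48 in S288c. Over all CUTs, 217 of 2661 in N17 and 35 of 2055 in S288c had such a ratio.

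Within the class, the size of the rise set N17 apart from the *S.cerevisiae* strains. Median *rrp6*Δ coverage of the selected CUTs was 45.5 for S288c, 43.4 for Σ1278b, 50.3 for JAY291 and 115 for N17, while median WT coverage was 8.43, 9.12, 10.003 and 11.7 in the same order. The median ratio was 4.14 for S288c, 3.81 for Σ1278b, 4.23 for JAY291 and 7.15 for N17. A ratio of 20 or more was held by 2, 2, 6 and 39 CUTs in the same order, and an *rrp6*Δ coverage of 1000 or more by 0, 2, 3 and 17. As the *S.cerevisiae* medians lay near the limit of 3, most of their CUTs were inside it by little, with 28 of 48, 60 of 78 and 79 of 118 at a ratio under 5, against 59 of 142 in N17. Over all CUTs, a ratio of 20 or more was held by 2 of 2055 for S288c, 16 of 2393 for Σ1278b, 25 of 2268 for JAY291 and 67 of 2661 for N17. An *rrp6*Δ coverage of 1000 or more was held by 0, 3, 4 and 18 of them in the same order. The median ratio over all CUTs was 3.34, 3.64, 4.34 and 3.52, so N17 was not the highest by that measure. Species, poly(A) selection and genome assembly change together between N17 and the other strains and cannot be told apart here.

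The share of the *rrp6*Δ signal in the class differed among the strains. Coverage times length, summed over the class, was 13.6% of the sum over all CUTs for S288c, 36.0% for Σ1278b, 39.5% for JAY291 and 54.9% for N17. The CUTs with WT coverage of 5 or more and a ratio under 3 held 31.8%, 20.2%, 20.9% and 29.8% in the same order. Both sets were chosen by coverage, which is part of this sum. In Σ1278b, CUT4383 on chromosome VII had 2904 in *rrp6*Δ and 944 in WT, and CUT4382 on chromosome V had 1311 in *rrp6*Δ and 424 in WT. Their ratios of 3.08 and 3.09 were just inside the limit. CUT4380 had 878 in *rrp6*Δ and 39.4 in WT, with a ratio of 21.8. CUT4378 on chromosome XIV had 466 in *rrp6*Δ and 119.5 in WT, with a ratio of 3.88. CUT4375 had the largest Σ1278b ratio, at 26.4, and CUT4339 on chromosome III had 10.6, with 73.2 in *rrp6*Δ and 6.01 in WT.

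In JAY291, whose genome is a set of contigs, CUT6662 had 3603 in *rrp6*Δ and 1038 in WT, CUT6661 had 2262 in *rrp6*Δ and 678 in WT, and CUT6659 had 1067 in *rrp6*Δ and 327 in WT, all with ratios between 3.26 and 3.47. CUT6658, from base 29 of its contig, had 975 in *rrp6*Δ and 8.40 in WT, a ratio of 104, and CUT6655 had 671 in *rrp6*Δ and 6.56 in WT, a ratio of 88.9. CUT6657 had 713 in *rrp6*Δ and 67.1 in WT. The class lay on 92 of the 322 contigs that hold a CUT, with at most 4 on 1 contig. Strong coverage in JAY291 was thus found both in CUTs already high in WT and in CUTs with a WT coverage under 10. Other large ratios were those of CUT6634, CUT6652 and CUT6629, at 29.7, 26.7 and 21.0, with 219, 438 and 182 in *rrp6*Δ against 6.39, 15.4 and 7.74 in WT.

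In N17, the 5 best covered CUTs were all strongly raised. CUT9282 on chromosome V had 5599 in *rrp6*Δ and 82.3 in WT, CUT9281 on chromosome VII had 4327 in *rrp6*Δ and 49.6 in WT, and CUT9280 under the chrXII label had 3410 in *rrp6*Δ and 54.8 in WT. CUT9279 on chromosome V and CUT9278 on chromosome II had 2805 and 2803 in *rrp6*Δ against 32.1 and 39.9 in WT. None of the 5 had a ratio under 61.1. The largest ratios were those of CUT9267 and CUT9271 on chromosome XV, at 115 and 100.004, with 1227 and 1555 in *rrp6*Δ against 9.69 and 14.6 in WT. CUT9253 had a ratio of 84.9. No gene was assigned in Σ1278b, JAY291 or N17, since no genome of these strains was used here.

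Length followed the coverage classes differently among the strains. The median length of the selected CUTs was 336 nt in S288c (95% order-statistic interval 254 to 456 nt), 405 nt for Σ1278b (296 to 554 nt), 441 nt for JAY291 (362 to 579 nt) and 598.5 nt for N17 (510 to 747 nt). The other CUTs had medians of 401, 439, 398.5 and 478 nt in the same order. Only in N17 did the interval of the selected CUTs, from 510 nt, lie wholly above that of the others, which ended at 492 nt. CUTs with WT coverage of 5 or more and a ratio under 3 had longer medians than the selected ones in each strain, at 502, 504, 528.5 and 661 nt, with overlapping intervals. In S288c, 12 of 48 were under 200 nt, or 25%, against 6 of 142 in N17, or 4.23%, and over 1000 nt there were 3 of 48, or 6.25%, and 36 of 142, or 25.4%. Over all CUTs, 15.5% in S288c and 6.95% in N17 were under 200 nt, and 11.4% and 15.3% over 1000 nt, so the whole annotations differed in the same direction.

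**Figure D4:**
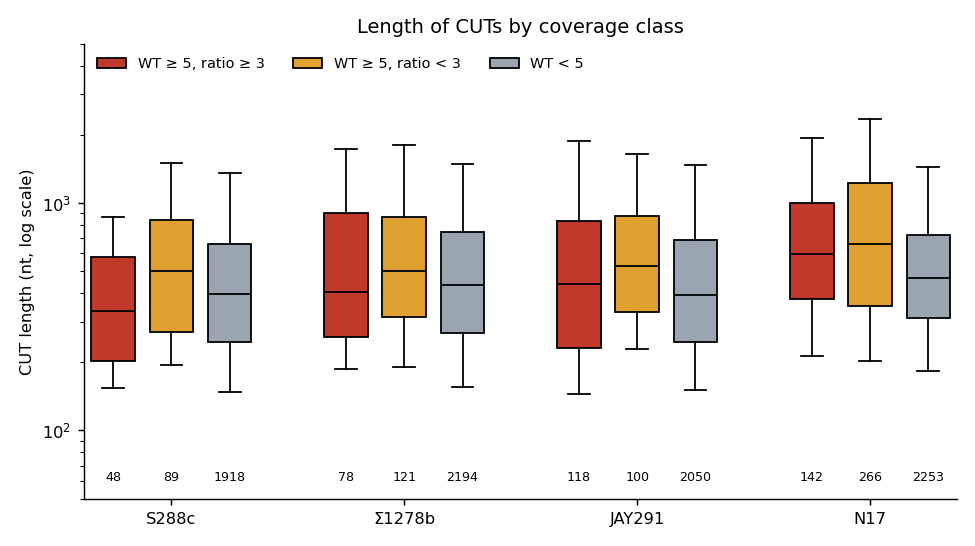
Length of CUTs in nt on a log axis by strain and coverage class, with boxes from the first to the last quartile, a line at the median, whiskers from the 5th to the 95th percentile and the number of CUTs below each box. The median of the selected CUTs is 336 nt in S288c and 598.5 nt in N17, and in each strain it lies below that of the CUTs with WT coverage of 5 or more and a ratio under 3.

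The longest CUTs of the class were in the other strains. CUT9225 in N17 spanned 6547 nt from base 510 of chromosome XVI, near the chromosome end, with 305 in *rrp6*Δ and 22.2 in WT. CUT4432 in Σ1278b spanned 3980 nt under the chrXII label, with 104 in *rrp6*Δ and 9.80 in WT, and it too stood after the ordered rows. CUT6647 in JAY291 spanned 3716 nt, with 368 in *rrp6*Δ and 91.7 in WT. The next longest were CUT9179 and CUT8935 in N17 with 2664 and 2468 nt, CUT4317 and CUT4351 in Σ1278b with 2793 and 2332 nt, and CUT6607 and CUT6542 in JAY291 with 2209 and 2105 nt. The authors merged neighbouring regions, so a long CUT may hold more than 1 transcript.

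The strands held similar numbers. The plus strand held 25 of the 48 S288c CUTs, 35 of the 78 from Σ1278b, 64 of the 118 from JAY291 and 67 of the 142 from N17, and each share's 95% Wilson interval included the share among the other CUTs. An overlap with a CUT on the other strand was present for 13.2% of the selected CUTs outside the chrXII label in S288c (5.75 to 27.3%), 27.5% for Σ1278b (18.4 to 39.05%), 11.9% for JAY291 (7.20 to 18.9%) and 18.4% for N17 (12.1 to 27.02%). Among the other CUTs it was present for 9.19%, 11.1%, 11.2% and 16.1% in the same order. Only in Σ1278b did the interval lie above that of the other CUTs, which ended at 12.6%. The selected CUTs were spread over the chromosomes, and outside the chrXII label those within 2000 bp of another numbered 2 for S288c and N17 and 6 for Σ1278b and JAY291. The chrXII label held 39 of 142 in N17, 10 of 48 in S288c and 9 of 78 in Σ1278b, beside 534 of all 2661, 331 of all 2055 and 372 of all 2393 CUTs.

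Some of these CUTs were in the class in several strains. The study lists 855 CUTs called in all 4 strains, and its entries could be placed in the Σ1278b, JAY291 and N17 annotations but not in that of S288c. Of the 855, 70 were in the class in at least 1 of the 3 strains, 49 in 1 strain, 10 in 2 and 11 in all 3. Listed CUTs made up 27 of 78 from Σ1278b, or 34.6%, 36 of 118 from JAY291, or 30.5%, and 39 of 142 from N17, or 27.5%, against 35.8%, 38.1% and 32.4% of the other CUTs. Where a listed CUT was in the class in N17, its JAY291 partner was too in 17 of 39 cases, while 16 partners were below a WT coverage of 5 and 6 had that coverage with a ratio under 3. Of all 855 listed CUTs, 36 were in the class in JAY291. A ratio of 3 or more was present in 33 of these 39 JAY291 partners, beside 86.2% of all JAY291 CUTs. Of the 39 Σ1278b partners, 13 were in the class and 16 were below a WT coverage of 5. Another 10 had that coverage with a ratio under 3, and 27 of the 39 had a ratio of 3 or more, beside 70.9% of all Σ1278b CUTs.

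The N17 CUTs with the largest ratios were mostly not on the list. Of 59 with a ratio of 10 or more, 7 were listed, or 11.9% (95% Wilson interval 5.87 to 22.5%), against 32 of 83 with a smaller ratio, or 38.6% (28.8 to 49.3%). In JAY291 the order was the other way, with 6 of 10 listed, or 60% (31.3 to 83.2%), against 30 of 108, or 27.8% (20.2 to 36.9%), and in Σ1278b it was 3 of 5 against 24 of 73. The N17 intervals did not overlap, and those of JAY291 did.

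The 11 CUTs in the class in all 3 strains had their own coverage pattern from locus to locus. CUT4375 in Σ1278b, CUT6634 in JAY291 and CUT9211 in N17 had 303, 219 and 238 in *rrp6*Δ against 10.5, 6.39 and 9.16 in WT, with ratios of 26.4, 29.7 and 23.5. CUT4359, CUT6625 and CUT9274 had 131, 151 and 1890 in *rrp6*Δ against 10.2, 10.05 and 41.7 in WT. The first of these was high in every strain, and the second was far higher in N17. CUT4379, CUT6644 and CUT9131 had 725, 307 and 81.7 in *rrp6*Δ against 38.8, 19.98 and 18.7 in WT, the opposite order. CUT4351, CUT6607 and CUT9158 had 105, 88.2 and 113 in *rrp6*Δ against 26.6, 25.3 and 23.6 in WT, with ratios of 3.85, 3.40 and 4.62. That last one had similar coverage in the 3 strains, and their lengths were 2332, 2209 and 1132 nt.

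The other 7 also varied from strain to strain. CUT4365, CUT6637 and CUT9157 had ratios of 9.06, 5.84 and 8.58, and CUT4323, CUT6603 and CUT9212 had 5.83, 4.23 and 12.001. CUT4347, CUT6633 and CUT9162 had 4.44, 3.98 and 7.17, and CUT4337, CUT6534 and CUT9096 had 5.16, 5.47 and 3.62. CUT4364, CUT6623 and CUT9182 had 3.80, 4.75 and 3.22. CUT4215, CUT6556 and CUT8956 had 27.3, 51.6 and 30.3 in *rrp6*Δ against 7.97, 11.4 and 5.19 in WT, and CUT4238, CUT6504 and CUT9019 had 30.4, 37.5 and 39.3 in *rrp6*Δ against 9.19, 7.79 and 7.57 in WT.

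**Figure D5:**
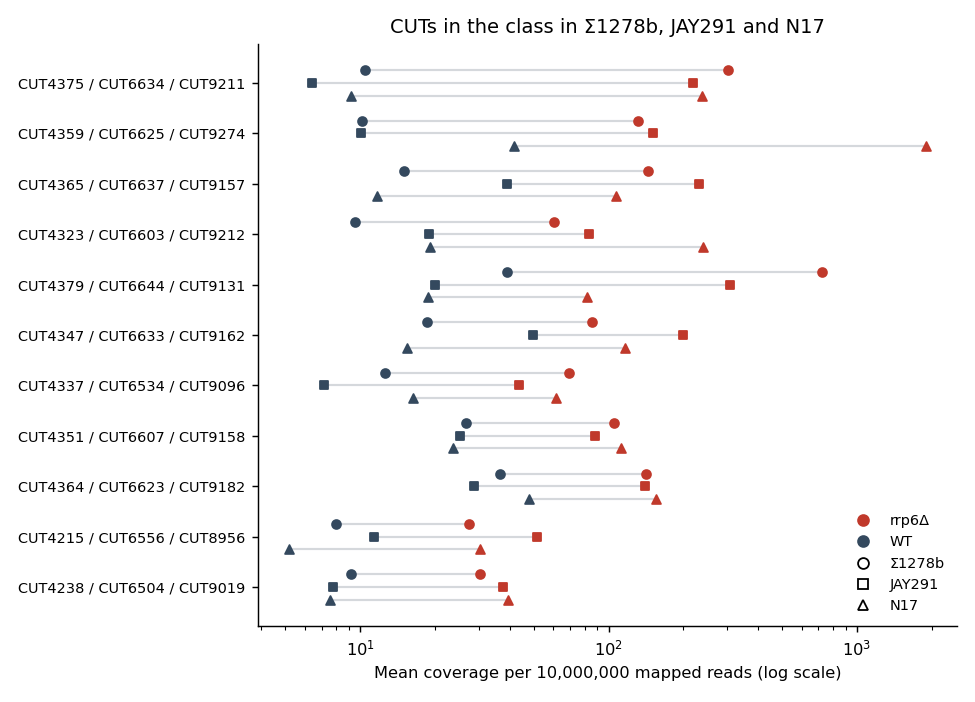
Mean coverage of the 11 listed CUTs in the class in Σ1278b (circles), JAY291 (squares) and N17 (triangles), with *rrp6*Δ in red and WT in dark blue on a log axis of coverage per 10000000 mapped reads. The top row, with ratios of 23.5 to 29.7, is alike in the 3 strains, while the N17 CUT of the second row reaches 1890. That N17 CUT spans 999 nt, against 227 nt in Σ1278b and 225 nt in JAY291.

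In a comparison added after the values were seen, lower coordinates of CUTs were compared under the same chromosome label and strand. On the minus strand the lower coordinate is the 3′ end. For 8 of these 11, a selected S288c CUT lay within 10 kb of the Σ1278b CUT, or 72.7% (95% Wilson interval 43.4 to 90.3%). For listed CUTs in the class in 1 or 2 of the 3 strains it was 9 of 59, or 15.3% (8.24 to 26.5%). For those in none of the 3 strains it was 32 of 785, or 4.08% (2.90 to 5.70%). By lower coordinates, CUT2006 at URA2 lay 7546 bp from CUT4375, CUT1986 at NRD1 5024 bp from CUT4351 and CUT1999 at RPR1 9276 bp from CUT4365. In the same way, CUT1995 at SNR190 lay 7529 bp from CUT4359 and CUT1983 at ECM3 1349 bp from CUT4323. The genomes differ in coordinates, so this is nearness of position and not a match of CUTs, and the match to S288c was not tested.

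The CUTs nearest the limits were as follows. In S288c, CUT2003, CUT1859 and CUT1917 were just inside the WT limit, with 169, 19.2 and 26.1 in *rrp6*Δ against 5.14, 5.21 and 5.30 in WT, and CUT1860, CUT1955 and CUT1896 just outside it, with 19.2, 37.9 and 23.3 in *rrp6*Δ against 4.93, 4.82 and 4.81 in WT. Just inside the ratio limit were CUT1856, CUT1964 and CUT1986, at 3.02, 3.02 and 3.04, and just outside it CUT1862, CUT2023 and CUT1820, at 2.95, 2.94 and 2.94. In Σ1278b, WT coverage of the 3 nearest CUTs on each side ran between 5.01 and 5.21 inside and between 4.89 and 4.91 outside, and the ratios between 3.003 and 3.02 inside and between 2.94 and 2.997 outside. In JAY291, WT coverage ran between 5.06 and 5.12 inside and between 4.95 and 4.98 outside, and in N17 between 5.09 and 5.18 inside and between 4.81 and 4.97 outside. In JAY291 the ratios ran between 3.02 and 3.04 inside and between 2.90 and 2.97 outside, and in N17 between 3.02 and 3.03 inside and between 2.94 and 2.97 outside. The class has no gap at either limit in any strain.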

How the data were processed

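Strand-specific RNA-seq of 16 libraries was used as 4 CUT annotations, 1 per strain. Per the study's methods, the authors removed rRNA reads with Bowtie 0.12.7, mapped the others uniquely to each strain's own genome (sacCer3 for S288c) and obtained per-nucleotide coverage with BEDTools 2.16.2. The deposited signal is this coverage, corrected for first-nucleotide bias and mappability, scaled per 10000000 mapped reads and averaged over 2 replicates and over the CUT. The deposited fold column, the authors' own comparison, was not used. CUTs came from the authors' HMM on *rrp6*Δ over WT, followed by merging, a coverage filter and a length filter. Depth per library is not part of the annotations.

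Here the ratio was computed with 1 added to both coverages. Length was stop minus start, and starts are printed counting from 1. S288c positions were compared with the RefSeq annotation of assembly R64. Fixed gene lists and relations to genes were counted, and shares got 95% Wilson intervals, medians exact order-statistic intervals, which cover counting error only. The gene and motif counting was tested on simulated data. Listed CUTs were placed by identical coordinates. The sheet of that list named S288c holds coordinates of Σ1278b CUTs, with 0 identical to the S288c annotation. CUTs named singly were those at URA2, IMD3, ADE12 and the list genes, those with the highest *rrp6*Δ coverage or ratio, the longest and shortest, those at the limits and those shared by 3 strains. Other named CUTs were chosen after their values were seen. 1 S288c CUT of the class is counted but not reported singly here. Members and lists were chosen with earlier results of these data known. No test was made, as no replicate values are used. Tools were pandas 2.3.3, SciPy 1.17.1, NumPy 2.4.6 and matplotlib 3.10.9 under Python 3.11.15.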

Additional observations from a re-analysis of the deposited data

How the results depend on the processing

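The number of selected CUTs depended on the ratio limit in the *S.cerevisiae* strains. With a ratio of 2.5 or more it was 85 in S288c and 179 in JAY291, and with a ratio of 4 or more it was 24 in S288c, 33 in Σ1278b and 66 in JAY291. A distance of 300 bp left 11 divergent S288c CUTs. The other 72 of 78 alternatives kept counts within 1.5 times, or median lengths, strand shares and motif densities within the interval or quartiles of the main value. These were WT limits of 4 and 6, a ratio limit of 4 or 2.5 elsewhere, a pseudocount of 0.1, a length of at least 200 nt, leaving out the chrXII label or the CUTs after the coverage order, other distances and overlaps for gene relations, motifs in the first 200 nt and matching of listed CUTs by name. Some of these counts were at or close to 1.5 times. They were 70 for S288c with a WT limit of 4, 117 for Σ1278b with a ratio limit of 2.5 and 15 upstream S288c CUTs with a distance of 300 bp. Leaving out a replicate was not possible, since the annotations hold means over replicates. No paired analysis was possible because the values are means over the replicates. CUTs near a WT coverage of 5 rest on few reads per nucleotide, and their depth per library was not examined.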
